A study of Homo sapiens with 6 samples.

Results

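The m6A reader genes of the YTH and IGF2BP families were 8 genes, chosen by symbol: YTHDF1, YTHDF2, YTHDF3, YTHDC1, YTHDC2, IGF2BP1, IGF2BP2 and IGF2BP3. All 8 were among the 61806 genes listed, and each had at least 1 sequencing read. They were measured by RNA sequencing of MG63, an established human osteosarcoma cell line of mesenchymal, bone-forming lineage. One group, shFTO, carried a stable short hairpin RNA directed at FTO, and the other, shNC, carried a control hairpin. Each group held 3 libraries labelled as independent biological replicates. Both groups came from a single cell line, and whether each hairpin line is 1 clone or a pool, and which promoter drives the hairpin, is not stated in the labels.

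N6-methyladenosine (m6A) is the most common internal modification of messenger RNA. Writer enzymes place it, the demethylases FTO and ALKBH5 remove it, and reader proteins bind it. YTH proteins hold the methylated base in a pocket of their YTH domain. In the cytoplasm YTHDF1, YTHDF2 and YTHDF3 act on translation and decay, in the nucleus YTHDC1 acts on splicing and export, and YTHDC2 is an RNA helicase best known from germ cells. The IGF2BP proteins bind RNA through KH domains and are known for keeping bound transcripts, such as those of growth genes, from decay. They are made in the embryo and again in many tumours.

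Only YTHDF3, YTHDF2 and YTHDC1 of the 8 genes were well covered, and none of the 8 differed between shFTO and shNC cells beyond the spread between libraries. YTHDF3, YTHDF2 and YTHDC1 gave 2106 of the 2172 reads of the 8 genes, or 97.0%. The other 5 genes had between 1 and 21 reads over all 6 libraries. For the 4 of these with more than 1 read, the exact 95% intervals of the read ratio, shFTO over shNC, began between 0.105 and 0.661 and ended between 1.84 and 6.18. These intervals cover counting error only and leave out the spread between libraries.

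The values were FPKM, which are reads divided by exon length and by the library's total reads. The whole reads behind them could be recovered from the rounded values. The libraries held between 93629 and 106245 reads, 592760 in all, and the 8 reader genes took 0.366% of these. FTO, the targeted gene, was listed at 0 in all 6 libraries, so the knockdown could not be checked here. All 10 mesenchymal and bone lineage markers examined had reads, led by PRRX1 with 705, COL1A1 with 139 and SPARC with 121 reads. The fewest were 14 reads each for RUNX2 and COL5A1 and 1 read for THY1. Of 15 markers of other cells, 4 had reads: the keratins KRT18 and KRT8 had 7 reads in shFTO and 1 read in shNC libraries, and the endothelial PECAM1 and neural TUBB3 had 1 read each. The summed epithelial level ran from 0 to 3.76 reads per 100000 in shFTO libraries and from 0 to 1.07 in shNC libraries, with the defining markers EPCAM, CDH1 and KRT19 at 0. Its part in the results below was not tested.

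Members of each family are similar in sequence, which limits how far a read can be assigned to 1 member. Coding stretches are therefore shown in which YTHDF1 and YTHDF2, and the 3 IGF2BP genes, are most alike. YTHDF3 was not part of this search. Each is 60 bases, read 5′ to 3′ on the coding strand from GENCODE release 29 transcripts on GRCh38. Capitals mark the positions at which the sequences of a set differ. The stretch from YTHDF1 lies at chr20:63202717-63202776 (minus strand) and that from YTHDF2 at chr1:28743497-28743556 (plus strand), and they differ at 8 positions.
YTHDF1: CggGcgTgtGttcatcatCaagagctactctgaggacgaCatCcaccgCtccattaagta
YTHDF2: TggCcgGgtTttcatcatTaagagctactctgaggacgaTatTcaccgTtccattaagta

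The pseudogene YTHDF2P1 at chr14:39215822-39215881 (plus strand) holds the YTHDF2 stretch with 2 positions changed, marked here in capitals.
YTHDF2P1: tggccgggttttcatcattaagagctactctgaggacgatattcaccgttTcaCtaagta

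The IGF2BP stretches lie at chr17:48997849-48997908 (plus strand), chr3:185824795-185824854 (minus strand) and chr7:23469948-23470007 (minus strand). At 16 of the 60 positions they are not the same in all 3 genes.
IGF2BP1: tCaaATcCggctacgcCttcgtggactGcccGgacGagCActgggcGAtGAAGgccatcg
IGF2BP2: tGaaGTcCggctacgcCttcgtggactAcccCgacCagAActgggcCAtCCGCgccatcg
IGF2BP3: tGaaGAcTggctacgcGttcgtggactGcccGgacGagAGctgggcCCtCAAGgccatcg

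Over the whole coding sequence, identity was 69.8% between YTHDF1 and YTHDF2, 70.9% between YTHDF1 and YTHDF3 and 72.8% between YTHDF2 and YTHDF3. It was 70.0% between IGF2BP1 and IGF2BP2, 70.5% between IGF2BP1 and IGF2BP3 and 70.8% between IGF2BP2 and IGF2BP3. The longest run of identical bases between aligned coding sequences of 2 members was 22, between IGF2BP1 and IGF2BP2. No stretch of 50 bases in the annotated transcripts of any member occurred in those of another member. Reads of at least that length that match exactly can thus be told apart between members.

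Relatives outside the 8 genes were closer. YTHDF2P1 matched the YTHDF2 coding sequence at 97.9% of aligned bases, and 8.72% of the 50-base stretches of YTHDF2 transcripts also occurred in this pseudogene. It had 4 reads, 2 each in shFTO replicates 1 and 2, against 526 reads for YTHDF2 itself. Of the 50-base stretches of IGF2BP2, 6.45% occurred in other genes, chiefly processed pseudogenes. One of these, ENSG00000225603, had 2 reads, both in shFTO replicate 1. For IGF2BP3 the share was 21.9%, and 16.6% of its stretches lay antisense to its neighbour MALSU1, which had 1 read. The libraries are labelled as strand-specific, but they do not state the strand setting used for counting. The share of 50-base stretches found in other genes was 0% for YTHDF1 and YTHDC1, 0.0928% for YTHDF3, 0.320% for YTHDC2 and 0.461% for IGF2BP1.

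Among the cytoplasmic readers, YTHDF3 had the highest level, 275 ± 24.8 FPKM in shFTO and 264 ± 20.9 FPKM in shNC cells (SD, n = 3 each). YTHDF3 is known for binding methylated transcripts together with YTHDF1 and YTHDF2. The gene (ENSG00000185728) lies on the plus strand of chromosome 8 of GRCh38, from 63168553 to 63212786, with 6163 exonic bases. Its FPKM was 253.5, 301.8 and 268.2 in shFTO replicates 1, 2 and 3, and 242.5, 265.1 and 284.2 in shNC replicates 1, 2 and 3. The highest value was in shFTO replicate 2 and the lowest in shNC replicate 1, and the groups overlapped. These values rest on 512 reads in shFTO and 470 reads in shNC libraries. The log2 fold change on log2(FPKM + 1), shFTO over shNC, was 0.06 with an SE of 0.15 and a 95% interval of -0.24 to 0.36 (limma, adjusted p = 0.927). A quasi-Poisson fit to the recovered reads gave a fold between 0.875 and 1.23 (95% interval, adjusted p = 0.984).

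YTHDF2, which recruits the CCR4-NOT deadenylase to methylated transcripts and so marks them for decay, was the second-highest member. YTHDF2 (ENSG00000198492) lies on the plus strand of chromosome 1, from 28736621 to 28769775, with 3729 exonic bases. Its FPKM was 244.8, 228.0 and 197.0 in shFTO replicates 1, 2 and 3, and 307.0, 233.7 and 220.5 in shNC replicates 1, 2 and 3. One library, shNC replicate 1, stood above the other 5, and the groups overlapped. The means were 223 ± 24.3 FPKM in shFTO and 254 ± 46.6 FPKM in shNC cells (SD, n = 3 each), from 253 and 273 reads. The log2 fold change was -0.17 with an SE of 0.16 and a 95% interval of -0.50 to 0.16 (limma, adjusted p = 0.772), and it was -0.03 without shNC replicate 1. The quasi-Poisson fit gave a fold between 0.699 and 1.11 (95% interval, adjusted p = 0.939).

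YTHDF1, known for raising the translation of methylated transcripts, had 1 read in all, in shNC replicate 3, where its level was 3.33 FPKM. It was at 0 in the other 5 libraries. YTHDF1 (ENSG00000149658) lies on the minus strand of chromosome 20, from 63195429 to 63216139, with 3206 exonic bases. With the upper limit for a count of 0 set at 3 reads, its level over the 3 shFTO libraries was at most 3.08 FPKM. Over the 3 shNC libraries, its 1 read stood for 1.08 FPKM. No fold change is given, since neither group had more than 3 reads.

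The balance within this subfamily was set by YTHDF3 and YTHDF2. YTHDF3 took 63.1%, 68.6% and 69.2% of the reads of the 3 YTHDF genes in shFTO replicates 1, 2 and 3, and 56.6%, 65.2% and 67.8% in shNC replicates 1, 2 and 3. The lowest share was that of shNC replicate 1 (exact Clopper-Pearson 95% interval 50.2% to 62.9%), and the highest was that of shFTO replicate 3 (63.1% to 74.9%). The groups overlapped, with means of 67.0 ± 3.37% in shFTO and 63.2 ± 5.84% in shNC cells (SD, n = 3 each). Per length, the FPKM of YTHDF2 divided by that of YTHDF3 was 0.966, 0.756 and 0.735 in shFTO libraries and 1.27, 0.881 and 0.776 in shNC libraries. Among the 6 libraries it was above 1 only in shNC replicate 1. Intervals and limits on counts cover counting error only and leave out variation between libraries. Reads amplified by PCR are not independent molecules, so these intervals may also be too narrow.

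**Figure D1:**
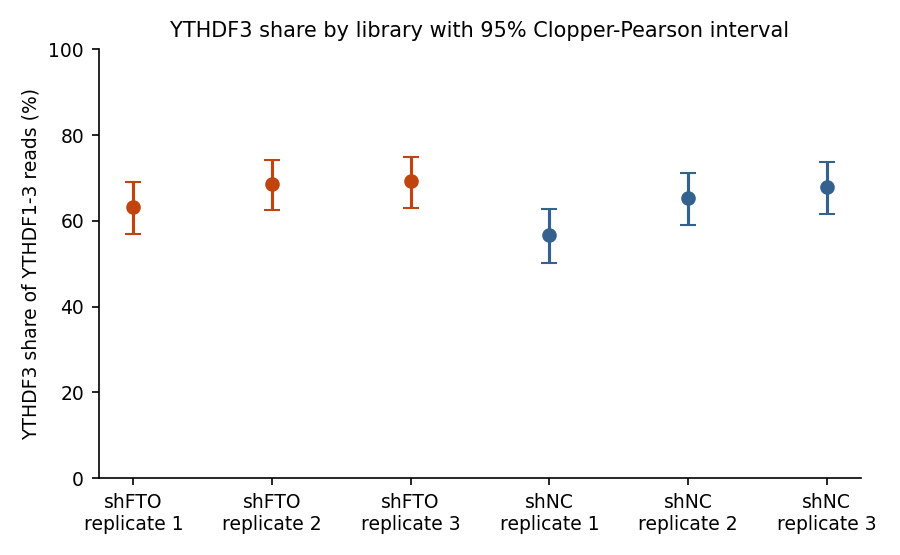
Share of YTHDF3 among the recovered reads of YTHDF1, YTHDF2 and YTHDF3 (percent), 1 point per library with its exact 95% interval, shFTO in orange and shNC in blue. The shares run from 56.6% in shNC replicate 1 to 69.2% in shFTO replicate 3, and the points of both groups overlap.

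YTHDC1, the nuclear YTH reader, is known for guiding splicing through SR proteins and for export and chromatin-linked roles. YTHDC1 (ENSG00000083896) lies on the minus strand of chromosome 4, from 68310387 to 68350090, with 7033 exonic bases. Its FPKM was 145.9, 142.1 and 118.2 in shFTO replicates 1, 2 and 3, and 156.7, 161.9 and 136.7 in shNC replicates 1, 2 and 3. The lowest and the highest library were shFTO replicate 3 and shNC replicate 2, and the groups overlapped. The means were 135 ± 15.0 FPKM in shFTO and 152 ± 13.3 FPKM in shNC cells (SD, n = 3 each), from 289 and 309 reads. The log2 fold change was -0.17 with an SE of 0.19 and a 95% interval of -0.55 to 0.22 (limma, adjusted p = 0.772). The quasi-Poisson fit gave a fold between 0.716 and 1.11 (95% interval, adjusted p = 0.945).

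YTHDC2 is the largest YTH protein and carries a helicase domain. YTHDC2 (ENSG00000047188) lies on the plus strand of chromosome 5, from 113513694 to 113595285, and has the longest exonic sequence of the 8 genes, 10805 bases. Its 5, 1 and 3 reads in shFTO replicates 1, 2 and 3 stood for 4.36, 0.98 and 2.68 FPKM, against 3, 6 and 3 reads in shNC replicates 1, 2 and 3, for 2.94, 5.50 and 2.97 FPKM. Both groups spanned low and high values. The read ratio, shFTO over shNC at equal depth, was 0.713 with an exact 95% interval of 0.265 to 1.84, and the log2 fold change in FPKM was -0.46 (limma, adjusted p = 0.899). It was -0.07 without shFTO replicate 2 and -0.79 without shFTO replicate 1.

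The 3 IGF2BP genes together had 44 reads, 26 in shFTO and 18 in shNC libraries, a ratio of 1.37 at equal depth with an exact 95% interval of 0.725 to 2.66. Per 100000 reads they came to 8.57 ± 1.07 in shFTO and 6.15 ± 4.57 in shNC libraries (SD, n = 3 each). The lowest sum was 1 read, in shNC replicate 1, and the highest was 10 reads, in shFTO replicate 3 and shNC replicate 2.

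IGF2BP2, also known for roles in metabolism and the member of its family most often kept in adult tissue, had 18 reads. IGF2BP2 (ENSG00000073792) lies on the minus strand of chromosome 3, from 185643130 to 185825042, with 5330 exonic bases. It had 3, 1 and 8 reads in shFTO replicates 1, 2 and 3, or 5.30, 1.99 and 14.5 FPKM, against 0, 4 and 2 reads in shNC replicates 1, 2 and 3, or 0, 7.43 and 4.01 FPKM. Its highest library, shFTO replicate 3, held 8 of the 18 reads, and the groups overlapped. The read ratio was 1.90 (exact 95% interval 0.661 to 6.18), and the log2 fold change in FPKM was 0.93 (limma, adjusted p = 0.772). Without shNC replicate 1 the log2 fold change was 0.03, and with a pseudocount of 0.1 in place of 1 it was 1.91.

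IGF2BP1, an oncofetal protein known for stabilising MYC transcripts, had 19 reads. IGF2BP1 (ENSG00000159217) lies on the plus strand of chromosome 17, from 48997385 to 49056145, with 9631 exonic bases. It had 3, 7 and 1 reads in shFTO replicates 1, 2 and 3, or 2.93, 7.73 and 1.00 FPKM, against 1, 3 and 4 reads in shNC replicates 1, 2 and 3, or 1.10, 3.08 and 4.44 FPKM. Each group held a library with 1 read, and the groups overlapped. The read ratio was 1.31 (exact 95% interval 0.479 to 3.75), and the log2 fold change was 0.19 (limma, adjusted p = 0.960).

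IGF2BP3, likewise oncofetal, had 7 reads. IGF2BP3 (ENSG00000136231) lies on the minus strand of chromosome 7, from 23310209 to 23470491, with 8535 exonic bases. It had 2, 0 and 1 reads in shFTO replicates 1, 2 and 3, or 2.21, 0 and 1.13 FPKM, against 0, 3 and 1 reads in shNC replicates 1, 2 and 3, or 0, 3.48 and 1.25 FPKM. Each group held 1 library at 0. The read ratio was 0.713 (exact 95% interval 0.105 to 4.22), and the log2 fold change was -0.19 (limma, adjusted p = 0.962).

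**Figure D2:**
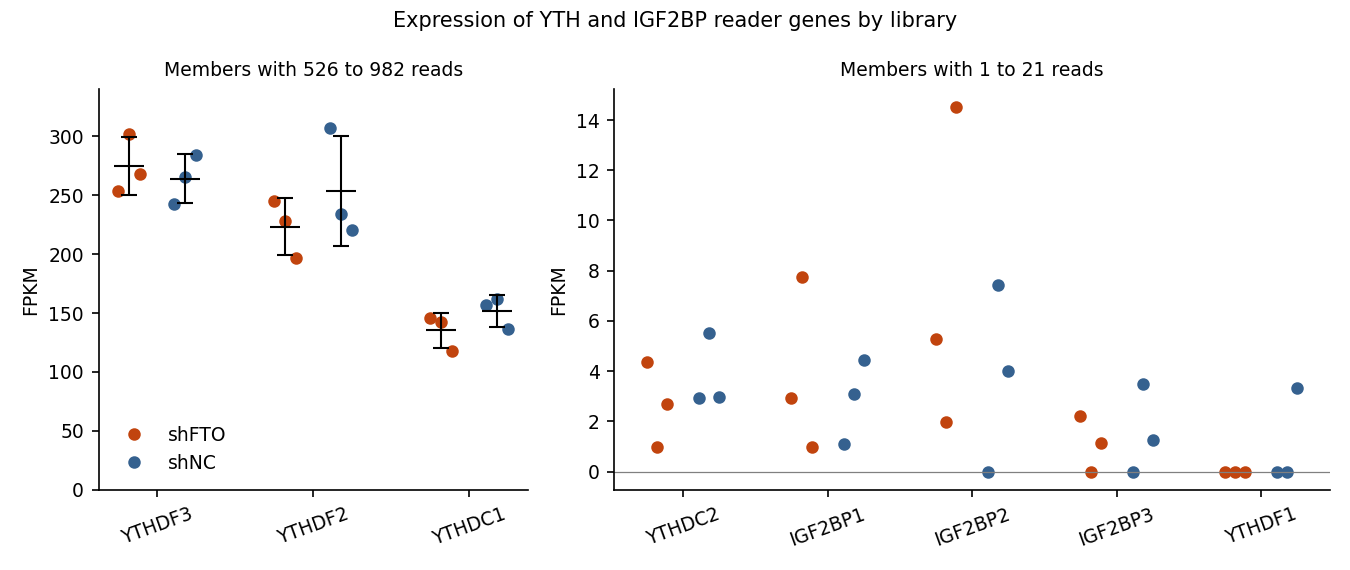
FPKM of the 8 reader genes in each library, shFTO in orange and shNC in blue, with replicates 1 to 3 from left to right. On the left, YTHDF3, YTHDF2 and YTHDC1 with mean and SD (n = 3 each); on the right, on its own axis, the 5 genes with 1 to 21 reads, as points only, where single reads set the spread. The groups overlap for all 8 genes.

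In order of mean level over the 6 libraries, YTHDF3 (269 ± 21.3 FPKM) and YTHDF2 (239 ± 37.2 FPKM) came first and were not apart, since their libraries overlapped. YTHDF3 was higher than YTHDF2 in 5 of 6 libraries. YTHDC1 followed at 144 ± 15.5 FPKM (SD, n = 6), with every library below every YTHDF2 library, so this step was larger than the spread. The next step, down to IGF2BP2 at 5.54 FPKM, was larger than the spread too. IGF2BP2, IGF2BP1 (3.38 FPKM), YTHDC2 (3.24 FPKM), IGF2BP3 (1.35 FPKM) and YTHDF1 (0.555 FPKM) overlapped at each step. Ranked by reads among all genes, YTHDF3 was 101st, YTHDC1 151st and YTHDF2 165th, whereas the other 5 ranked between 1242 and 5312. For comparison, ACTB, the cytoskeletal actin gene, had 75 reads, at 24.8 ± 5.03 FPKM in shFTO and 33.1 ± 10.9 FPKM in shNC cells (SD, n = 3 each), and METTL3 had 1 read. The labels do not state whether the table holds all reads of each library or a subset. The levels and ranks here therefore describe the deposited table, and how far they follow RNA abundance was not tested. In bulk RNA fewer expressing cells and less RNA per cell cannot be told apart.

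**Figure D3:**
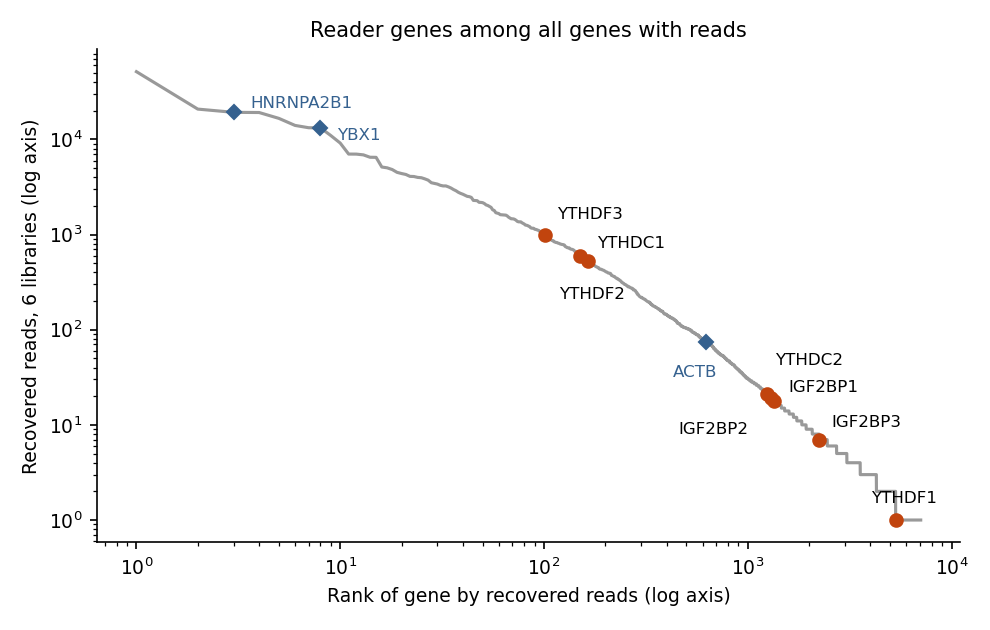
Recovered reads of each gene over the 6 libraries (log axis) against its rank by reads (log axis), in grey for all 7057 genes with reads. Orange circles mark the 8 reader genes and blue diamonds HNRNPA2B1, YBX1 and ACTB. YTHDF3, YTHDC1 and YTHDF2 lie at ranks 101 to 165, and YTHDF1 lies among the genes with 1 read.

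All 8 members were among the 4932 genes tested with limma, having a mean of at least 1 FPKM in a group (YTHDF1 only through its 1 read in shNC), and 0 of 8 were called at an adjusted p under 0.05. Over all genes 2 were called, or 0.0406%. At an unadjusted p under 0.05 there were 0 members and 190 of all genes. In the quasi-Poisson fit, limited to genes with at least 30 reads, 3 members were tested and 0 called. Over all 1021 genes in that fit 0 were called, or 0%, and 60 had an unadjusted p under 0.05. None of the 8 members had groups that did not overlap, against 325 of the 4932 genes, or 6.59%. The median log2 fold change was -0.17 over the 7 members other than YTHDF1 and 0.004 over all genes tested. The limma intervals of YTHDF3, YTHDF2 and YTHDC1 lay within a 1.5-fold change in either direction. Those of YTHDC2 (fold 0.192 to 2.76), IGF2BP1 (0.288 to 4.50) and IGF2BP3 (0.203 to 3.81) held a 2-fold change both ways, on log2(FPKM + 1). The limma interval of IGF2BP2 (0.508 to 7.14) had the highest upper end of the 8 members. The exact read-ratio interval of YTHDC2, which covers counting error only, ended at 1.84.

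**Figure D4:**
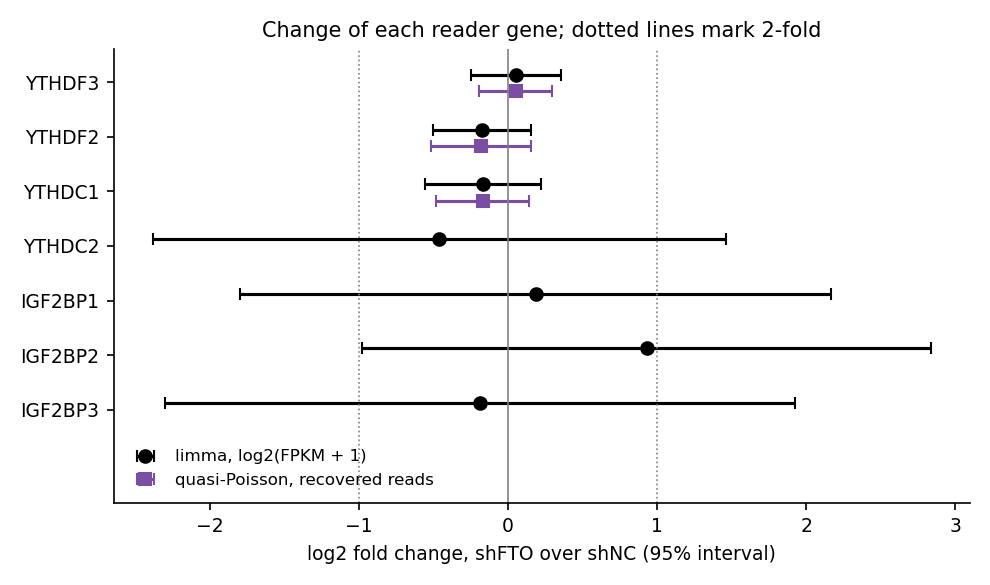
Log2 fold change, shFTO over shNC, with 95% interval, for the 7 reader genes with more than 1 read, from limma on log2(FPKM + 1) (black circles) and from the quasi-Poisson fit to reads (purple squares, 3 genes). All intervals hold 0, and those of YTHDF3, YTHDF2 and YTHDC1 lie well inside the dotted lines at 2-fold.

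The spread between libraries was close to counting error for YTHDF3 and YTHDC1, but not for YTHDF2 in shNC cells. Between the 3 libraries of a group, the coefficient of variation of YTHDF3 was 9.02% in shFTO and 7.91% in shNC cells, where counting alone would give 7.65% and 7.99%. For YTHDC1 it was 11.1% in shFTO and 8.78% in shNC cells, against 10.2% and 9.85% from counting. YTHDF2 had 10.9% in shFTO and 18.4% in shNC cells, against 10.9% and 10.5% from counting. The 18.4% rests on 3 libraries, with shNC replicate 1 above the others, and its excess over counting error was not tested.

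The genes around the readers were read from 7 lists of 85 genes, of which 77 had reads and 59 were tested in the limma fit. Of these 59, 0 were called higher and 0 called lower in shFTO cells, against 2 of all 4932 genes, or 0.0406%. The median log2 fold change of the 59 was -0.05. This median and the list medians below include genes with few reads that reached 1 FPKM in 1 group only. No direction is therefore read from them. Over all genes tested, groups did not overlap for 325 of 4932, or 6.59%. In the lists, the genes whose groups did not overlap were HNRNPA2B1, FXR1, CNOT7, SRSF7, STAU1, CCND1, HMGA2 and BTRC. All of these had an adjusted p of 0.772 in limma. Of these, CNOT7, STAU1, HMGA2 and BTRC rest on 6 to 17 reads each. STAU1, HMGA2 and BTRC entered the test only through the group in which they were higher, so no share is read from this count.

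On the writer side, 12 of 13 genes had reads, 8 were tested and 0 were called, with a median log2 fold change of 0.20. Of those tested, ZC3H13, ZCCHC4, PCIF1 and TRMT112 had reads in 1 group only. WTAP, the adaptor that brings the methyltransferase to nuclear speckles, had most of their reads. Its level was 125 ± 30.2 FPKM in shFTO and 100.5 ± 14.8 FPKM in shNC cells (SD, n = 3 each; limma adjusted p = 0.772). METTL3, the catalytic subunit, had 1 read and METTL14, its partner, 2 reads, all in shFTO libraries. Of the 2 demethylases, FTO was at 0 and ALKBH5 had 1 read in shFTO and 3 reads in shNC libraries, with 0 called.

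Other proposed m6A readers had reads for all 13 genes, with 11 tested and 0 called and a median log2 fold change of 0.02. HNRNPA2B1, a nuclear RNA-binding protein implicated in microRNA processing, had 19270 reads, the third most of all genes. Its level was 2657 ± 37.5 FPKM in shFTO and 2493 ± 74.8 FPKM in shNC cells (SD, n = 3 each), and the groups did not overlap. The log2 fold change was 0.09 (limma, adjusted p = 0.772; quasi-Poisson adjusted p = 0.203). FXR1, an RNA-binding relative of the fragile X protein, was at 257 ± 11.2 FPKM in shFTO and 293 ± 12.0 FPKM in shNC cells (SD, n = 3 each; limma adjusted p = 0.772), with no overlap. PRRC2A, a reader known from glial development in mice, overlapped between the groups. SND1, a nuclease-domain protein, had 48 reads in shFTO and 27 reads in shNC libraries and an unadjusted limma p of 0.0831.

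**Figure D5:**
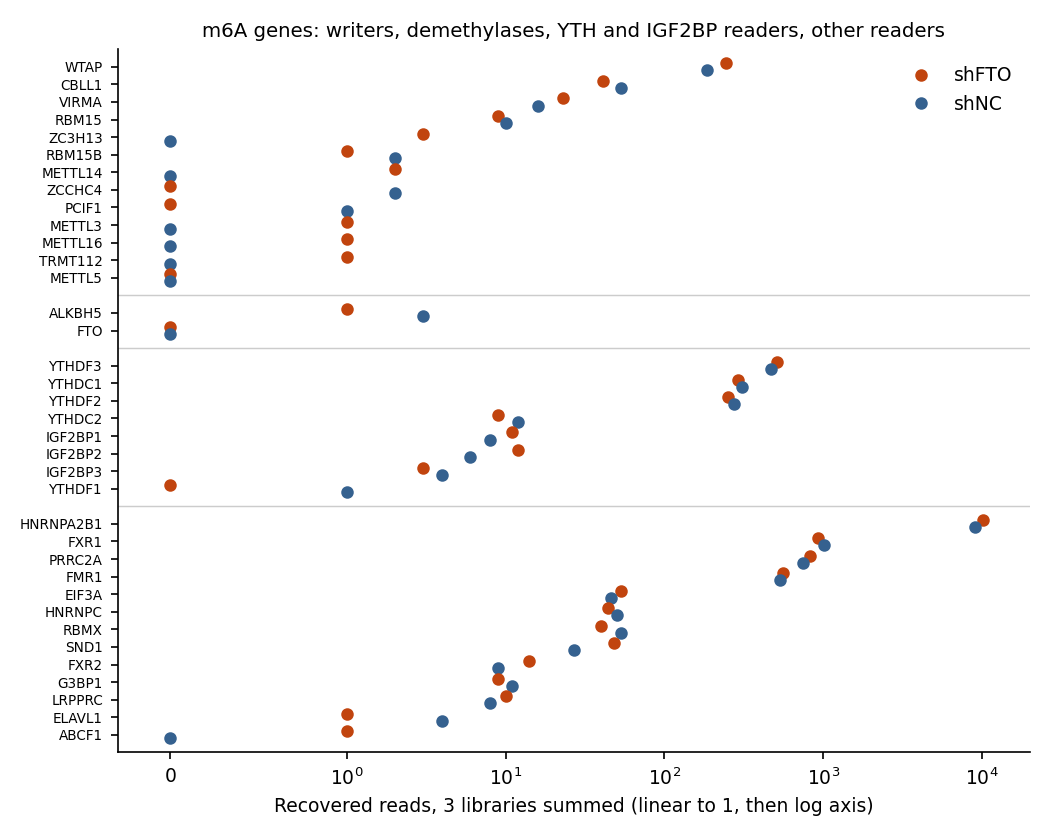
Recovered reads summed over 3 libraries per group (linear to 1, then log axis) for m6A genes, from the top: writers, demethylases, the 8 YTH and IGF2BP readers, and other proposed readers; shFTO in orange, shNC in blue. HNRNPA2B1, FXR1, PRRC2A and FMR1 hold more reads than YTHDF3, and METTL3, ALKBH5 and YTHDF1 hold 1 to 4 reads in all.

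Factors with which the readers work had no called gene either, at a rate of 0.0406% over all genes. Of the deadenylation and decay factors through which YTHDF2 acts, 17 of 18 had reads, 12 were tested and 0 called, with a median log2 fold change of -0.02. CNOT2, a CCR4-NOT subunit, was at 254 ± 29.4 FPKM in shFTO and 240.4 ± 21.7 FPKM in shNC cells (SD, n = 3 each), and CNOT1, the scaffold of that complex, had 198 and 205 reads. The smallest p in this list was that of TOB1, which links the complex to target transcripts, at 61.0 ± 23.5 FPKM in shFTO and 94.9 ± 42.1 FPKM in shNC cells (SD, n = 3 each). Its adjusted p in limma was 0.772. RIDA, the bridge between YTHDF2 and RNase P/MRP, was at 0 in all libraries.

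Of the nuclear partners of YTHDC1, all 12 had reads, 8 were tested and 0 called, with a median log2 fold change of -0.16. The splicing factors SRSF1, SRSF10 and SRSF7 had 2654, 1310 and 1215 reads. SRSF7 was at 533 ± 8.88 FPKM in shFTO and 479 ± 36.9 FPKM in shNC cells (SD, n = 3 each), with no overlap (log2 fold change 0.16; limma, adjusted p = 0.772). SRSF3, which YTHDC1 is known to recruit, had 273 reads in shFTO and 294 reads in shNC libraries.

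Of 9 proteins found with IGF2BP proteins in messenger ribonucleoprotein particles, all were tested and 0 called, with a median log2 fold change of -0.02. YBX1 had 13242 reads, PABPC1 10976 and HNRNPU 6883, while the 3 IGF2BP genes had 44 in all. STAU1 had 1 read in shFTO and 6 reads in shNC libraries, and the smallest unadjusted limma p of this list, 0.0605. It entered the test only through its level in shNC cells, so nothing is read from this p. Among 19 transcripts known to be bound by IGF2BP proteins, 14 had reads, 11 were tested and 0 called, with a median log2 fold change of -0.37. Of those tested, MYC, HMGA2, FSCN1 and HMGA1 had reads in 1 group only. ACTB had 33 reads in shFTO and 42 reads in shNC libraries, and CD44, a cell-surface receptor for hyaluronan, had 14 and 22 reads. BTRC had 1 read in shFTO and 5 reads in shNC libraries, and HMGA2, a fetal chromatin protein, had 6 and 0 reads. MYC had 2 reads, both in shFTO libraries, and IGF2, H19, TK1, LIN28B and PEG10 were at 0.

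Across the 6 libraries, the gene whose level followed that of YTHDF2 most closely was UBE2V2 (Pearson r = 0.976), then CUX1 (r = 0.961). For YTHDF3 they were MEF2C (r = 0.931) and NFAT5 (r = 0.921), and for YTHDC1 they were TXNRD1 (r = 0.984) and PHF3 (r = 0.969). These are the highest among 704 genes averaging 10 or more reads per library, over 6 points that share library scaling, and are given as a description. Between the members, r was -0.63 for YTHDF2 and YTHDF3, 0.742 for YTHDF2 and YTHDC1 and -0.35 for YTHDF3 and YTHDC1.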

How the data were processed

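The 3 shFTO and 3 shNC libraries were made from polyadenylated RNA of MG63 cells. The submitters' processing notes name the aligner HISAT2 2.2.1, the read counter HTSeq 0.6.1, the assembler StringTie 1.3.3b, FastQC 0.10.1, DESeq2 1.50.2 and the build GRCh38, without settings. The authors deposited FPKM for each gene, with 2 decimals, beside its exonic length. FPKM depends on library total, so a few abundant genes lower all others. A search found for each library the total that turns FPKM times length into whole reads; 100% of values were whole within 0.05 read. Totals of 93629 to 106245 reads limit precision. limma 3.58.1 (R 4.3.3) with trend and robust moderation tested log2(FPKM + 1), pseudocount 1, over 4932 genes averaging 1 FPKM or more in a group, with Benjamini-Hochberg adjustment over all of them and calls under 0.05. Fold changes on this scale understate changes of low genes. The quasi-Poisson fit used moderated dispersion and genes with at least 30 reads. Exact intervals were computed with SciPy 1.17.1. The tests were run on simulated data first, with changes placed only in genes of moderate counts, averaging 10 reads per library or more. That run does not cover the members with few reads, and its outcome is not given here. Gene models and coding sequences came from GENCODE release 29, where 94.3% of gene IDs were found, on the same build. The p-values set the difference against the spread between libraries. The members and lists were chosen with earlier results of these data known. All 8 members were named; from each list, up to 3 genes with the most reads and 2 with the smallest p; the targeted gene, overlapping or like-named genes, and 2 genes most correlated with each member above 10 reads per library. A gene that this rule takes is not reported here. Further list genes and marker genes were named after their values were seen.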

Additional observations from a re-analysis of the deposited data

How the results depend on the processing

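The number of reader genes called was 0, and that of list genes 0, under every alternative run: a pseudocount of 0.1, no filter, at least 10 reads per library, limma-voom, the quasi-Poisson fit, median-of-ratios and upper-quartile scaling, a replicate block, and each library left out. With at least 10 reads per library, and in the quasi-Poisson fits, only YTHDF3, YTHDF2 and YTHDC1 and 28 to 31 list genes were tested. Leaving libraries out of the quasi-Poisson fit was chosen after seeing the data. Over all genes these gave 0 to 17 calls, against 2. With the replicate block there were 17, with 0 members and 0 list genes. Same-numbered libraries did not deviate together (r = -0.003, 0.04 and -0.01 over 705 genes), so the numbers were not taken as pairs. With 1 library left out, the log2 fold change ran from -0.0144 to 0.11 for YTHDF3 (-0.0174 and -0.0044 in the quasi-Poisson fit, without shFTO replicate 2 and without shNC replicate 1), from -0.36 to 0.70 for IGF2BP1 and from -0.74 to 0.34 for IGF2BP3, changing sign in each. It ran from -0.27 to -0.03 for YTHDF2, from -0.79 to -0.07 for YTHDC2 and from 0.03 to 1.57 for IGF2BP2. The cause was not tested. YTHDF1 was not tested without shNC replicate 3, which holds its only read. With 1 library left out, the mean YTHDF3 share ran from 65.9% to 68.9% in shFTO and from 60.9% to 66.5% in shNC cells. Depth limits the 5 low members, whose values move with single reads.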
